A study of Homo sapiens with 8 samples.

Results

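A set of 10 imprinted gene regions was followed through a course of DNA methylation loss: DIRAS3, INPP5F, RB1, NNAT, FAM50B, MCTS2P, ZNF597, ZNF331, MKRN3 and PEG13. Each locus was defined as the CpGs listed within a given hg19 interval, without use of any measured value. The 10 intervals held 259 of the 3209182 CpGs listed in any library. DNA came from HUES64, an established line of human embryonic stem cells, in a derivative labelled as a DNMT1 knockout, and was sampled daily from day 0 to day 7 of the withdrawal of DNMT1*. The knockout is shared by all 8 libraries, day 0 included, and DNMT1* is known from the published line as an exogenous, repressible copy of the enzyme. Reduced representation bisulfite sequencing (RRBS) cuts DNA at MspI sites and reads the CpGs beside them. Each day had 1 library, so there are no replicates, nothing says whether the course was repeated, and p values over days describe a single course. How many clones the line represents is not given in the sources used here, and methylation alone gives no check of the labelled cell type against expressed markers.

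At an imprinted gene, a differentially methylated region carries methylation on the allele inherited from 1 parent, and the other allele is the one that is usually expressed. DNMT1 copies CpG methylation onto the new DNA strand after replication, and in embryos imprinted regions are known to keep methylation through a general wave of loss, which depends on DNMT1 and on the zinc finger protein ZFP57. Differentially methylated regions read at an intermediate level when both alleles are sequenced together. The deposited values carry no allele, so 1 methylated and 1 unmethylated allele cannot be told apart from partial methylation of both.

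Depth set what could be read. Days 0, 1, 2, 6 and 7 had 21 to 44 reads at the median CpG and are called the deep libraries here, and days 3, 4 and 5 had 4 reads. In all, 12359218 to 161534152 CpG read calls were listed per library. The level of a locus is its methylated reads over all its reads at fixed CpGs, those read at least 10 times in every deep library. There were 202 fixed CpGs in the 10 loci. The intervals held 44 fixed CpGs at RB1, 40 at PEG13, 29 at MKRN3, 25 at NNAT, 18 at ZNF597, 16 at ZNF331, 15 at MCTS2P, 12 at FAM50B, 3 at INPP5F and 0 at DIRAS3. INPP5F and DIRAS3 are therefore given over all their listed CpGs, 12 and 3. Reads of a locus or stretch are summed over its CpGs, so a read that covers several CpGs is counted at each of them. Ranges in brackets are Wilson 95% intervals, which take these counts as independent and are therefore too narrow for pooled CpGs. They cover counting error only, and reads that carry no molecular identifier may be copies of the same molecule.

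Among the loci, 4 overlap a promoter whose sequence could be tied to the listed CpGs, and these are printed to show where the measured CpGs lie. Promoter sequences are from RefSeq on GRCh38.p14, while the methylation values are on hg19, so no coordinate was carried from 1 build to the other. A promoter was matched when the spacing of its CGs fitted the spacing of the listed CpGs. All 12 listed CpGs in the window of FAM50B fell on CGs, as did all 15 of MCTS2P, 12 of ZNF597 and 9 of MKRN3. The next best placement held fewer listed CpGs, of which 3 of 4 fell on CGs at FAM50B, MCTS2P and ZNF597, and 3 of 5 at MKRN3. The 250 bases before the start site are given 5′ to 3′ on the gene's strand, and capitals mark the CGs with listed CpGs. These stand at chr6:3849123-3849372 (plus strand) for FAM50B, chr20:31547129-31547378 (plus strand) for MCTS2P, which RefSeq names MCTS2, chr16:3443505-3443754 (minus strand) for ZNF597 and chr15:23565424-23565673 (plus strand) for MKRN3.
FAM50B: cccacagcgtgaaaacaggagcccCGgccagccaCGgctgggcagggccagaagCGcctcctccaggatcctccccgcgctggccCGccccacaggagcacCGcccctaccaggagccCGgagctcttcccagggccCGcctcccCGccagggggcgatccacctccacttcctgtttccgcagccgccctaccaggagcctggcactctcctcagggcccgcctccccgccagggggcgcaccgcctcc
MCTS2P: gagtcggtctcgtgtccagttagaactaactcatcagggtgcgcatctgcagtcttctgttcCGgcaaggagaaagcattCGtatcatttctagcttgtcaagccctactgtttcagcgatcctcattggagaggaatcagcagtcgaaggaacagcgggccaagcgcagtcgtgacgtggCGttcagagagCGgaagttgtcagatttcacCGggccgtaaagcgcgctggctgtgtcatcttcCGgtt
ZNF597: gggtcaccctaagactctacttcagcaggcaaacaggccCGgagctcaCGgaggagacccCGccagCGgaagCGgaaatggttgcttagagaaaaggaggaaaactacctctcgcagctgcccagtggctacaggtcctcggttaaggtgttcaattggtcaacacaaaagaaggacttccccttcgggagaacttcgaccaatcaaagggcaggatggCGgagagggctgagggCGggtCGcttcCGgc
MKRN3: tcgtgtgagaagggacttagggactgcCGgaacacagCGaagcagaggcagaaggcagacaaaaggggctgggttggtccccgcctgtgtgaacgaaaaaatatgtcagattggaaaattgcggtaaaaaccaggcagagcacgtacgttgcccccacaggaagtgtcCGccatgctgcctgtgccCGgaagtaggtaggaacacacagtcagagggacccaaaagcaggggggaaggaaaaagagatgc

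Of the CGs in these 4 stretches, 8 of 18 were listed at FAM50B, 6 of 18 at MCTS2P, 9 of 13 at ZNF597 and 4 of 10 at MKRN3. The recognition site of MspI, CCGG, occurred 2 times in FAM50B, 3 times in MCTS2P, 2 times in ZNF597 and 2 times in MKRN3, and 58.4% of 34788 promoter windows of RefSeq hold it. The hexamer TGCCGC, known as the motif of ZFP57, was searched on both strands. It was found in none of the 4 stretches, and 12.8% of the 34788 promoter windows hold it. The absence of these letters says nothing of ZFP57 at the rest of each locus.

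The name under which the loci were grouped speaks of intermediate methylation, and the day 0 levels were at 80% or more for 5 of them. NNAT stood at 89.9% (88.1 to 91.4%), RB1 at 88.8% (87.4 to 90.0%), INPP5F at 86.3% (81.1 to 90.2%), FAM50B at 86.3% (83.0 to 89.0%) and MKRN3 at 80.1% (78.1 to 81.9%) on day 0. MKRN3 is at the limit of 80%, since its interval spans it, and with CpGs of at least 20 reads 3 of 8 loci stood at 80% or more. Levels between 20% and 80% were found at ZNF331, with 59.96% (56.9 to 62.9%), MCTS2P, with 41.9% (38.5 to 45.3%), ZNF597, with 40.5% (37.4 to 43.7%), and PEG13, with 28.0% (26.5 to 29.7%). DIRAS3 had 17 of 38 reads methylated, or 44.7% (30.1 to 60.3%), an interval too wide to place it further. In this order the intervals of NNAT, RB1, INPP5F and FAM50B overlap each other, as do those of MCTS2P and ZNF597, while MKRN3 overlaps INPP5F alone, ZNF331 overlaps the wide DIRAS3 alone, and PEG13 overlaps none. Over single fixed CpGs, 73 of 202 (36.1%) in the loci stood between 20% and 80% over days 0 and 1, against 26.7% of the 2496769 autosomal CpGs covered alike, and 107 (53.0%) stood at 80% or more, against 41.6%. CpGs of a locus share reads, so these shares were not tested.

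Methylation of all 8 loci deep enough for the test fell over the 8 days. The test was a quasi-binomial regression of methylation on day, fitted to 201380 regions, which were 1-kb tiles of the autosomes, the loci and a list of imprinting control regions, with Benjamini-Hochberg adjustment over all of them. Adjusted p ran from 4.4e-21 at NNAT to 4e-11 at MCTS2P, with the dispersion moderated over all regions. Without moderation the same regression gave adjusted p from 8e-06 at RB1 to 0.00068 at MCTS2P. In the moderated test 90.2% of regions fell and 0.13% rose, so 8 falls in 8 loci are what most of the genome did. Of tiles between 20% and 80% on days 0 and 1, 89113 of 89117 fell. The fitted difference between day 7 and day 0 was -83.6 points at NNAT, -78.6 at FAM50B, -73.2 at RB1, -72.9 at MKRN3, -50.6 at ZNF331, -38.3 at MCTS2P, -36.9 at ZNF597 and -27.7 at PEG13. The fit overstated the fall at all 8 loci. In the same order, the measured differences were -78.6, -74.9, -69.4, -65.9, -48.0, -31.3, -31.5 and -24.4 points. DIRAS3, with 0 fixed CpGs, and INPP5F, with too few reads in the shallow libraries, did not enter that fit. In a fit of the 5 deep libraries over all CpGs with a read, chosen after seeing the data, both fell, among 92.8% of 302086 regions.

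**Figure D1:**
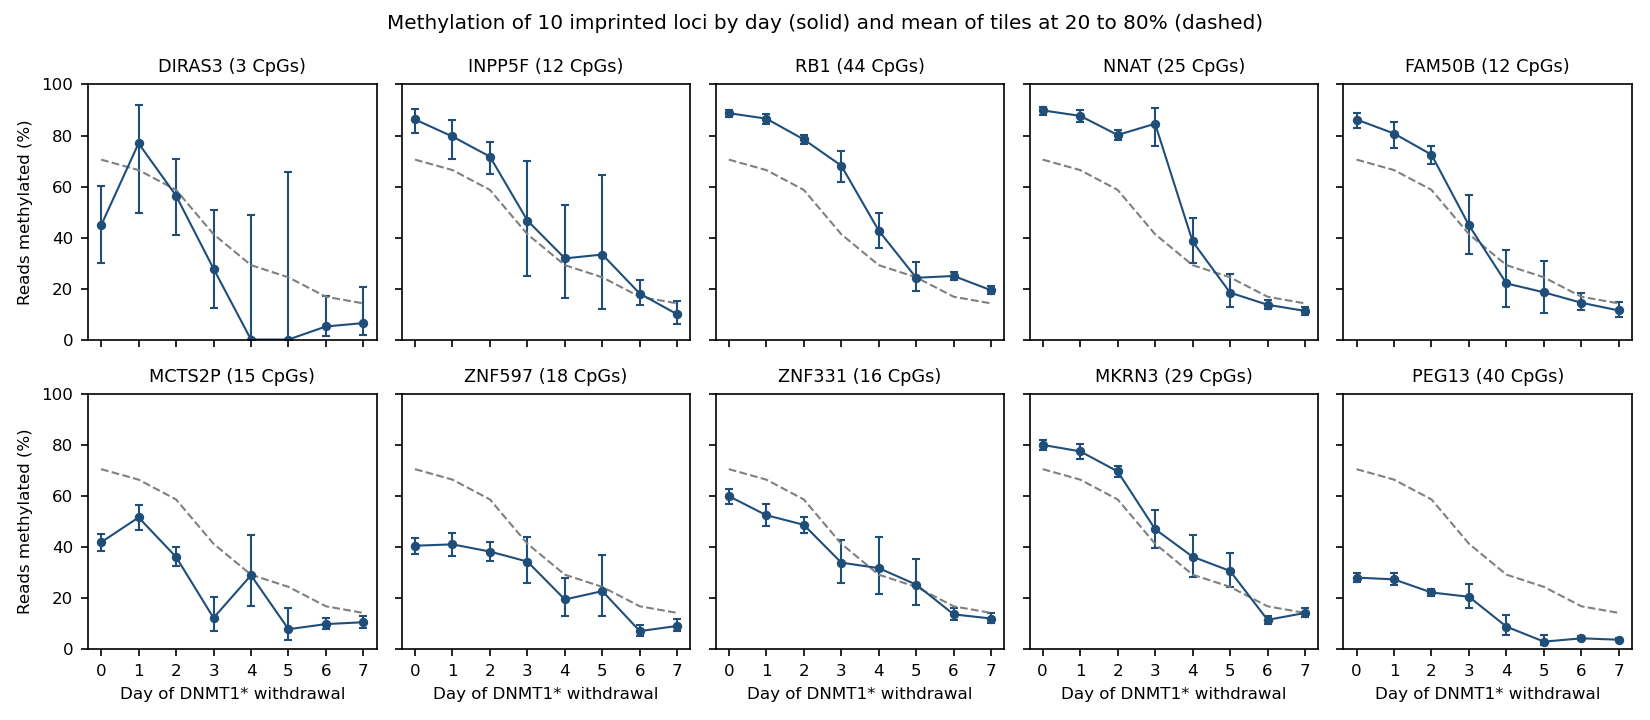
Share of reads methylated (%) at each of the 10 loci against the day of DNMT1* withdrawal, with Wilson 95% intervals as bars, and the mean of 89117 tiles at 20 to 80% on days 0 and 1 as the dashed line. NNAT, RB1, FAM50B, INPP5F and MKRN3 start above the tiles and end near them on day 7, ZNF597 and MCTS2P start below them, and PEG13 lies below them on every day.

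The loci of the first group hold copies made by retrotransposition. At RB1, which encodes the retinoblastoma tumour suppressor, the imprinted CpG island (chr13:48892341-48895763, hg19) is known to be a retrocopied sequence inside an intron. Reads methylated at RB1 were 88.8%, 86.6%, 78.5%, 68.2%, 42.7%, 24.2%, 24.9% and 19.3% on days 0 to 7. RB1 stood above the mean of tiles at 20 to 80% on all days but day 5, with 24.2% against 24.4%. Those tiles began lower, at 70.6% on day 0. RB1 also stood above the mean of tiles at 80% or more, 86.6% on day 0, on all days but day 5, with 24.2% against 30.8%. The day 7 level of RB1, 19.3% (17.7 to 21.0%), was the highest of the 10 loci, and its interval holds the 18.5% of tiles at 80% or more. Of its 44 fixed CpGs, 43 were at 80% or more over days 0 and 1, and on day 7 they spread between 4.35% and 40% with a median of 18.8%. The single CpG at an intermediate level lay at chr13:48894827, with 57.6% on day 0, 46.8% on day 2 and 21.1% on day 7.

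FAM50B (chr6:3849082-3850359, hg19) is an intronless retrogene expressed from the paternal allele. Its levels were 86.3%, 80.8%, 72.5%, 44.8%, 22%, 18.5%, 14.4% and 11.4% on days 0 to 7. All 12 fixed CpGs lie in the matched promoter window, from 226 bases before the start to 32 after it. Each day read lower than the day before, and the log-scale slope was -0.326 ± 0.028 per day (SE, 8 libraries; exact two-sided permutation p = 5e-05, the smallest that 8 days allow, unadjusted), a halving every 2.13 days. The CpGs 113 and 105 bases before the start had 0 of 24 and 0 of 23 reads methylated on day 7, for which 3 reads set upper limits of 12.5% and 13.04%, after 75% and 73.2% over days 0 and 1. At the other end of the window, the CpG 32 bases after the start kept 9 of 36 reads methylated (25%).

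MCTS2P (chr20:30134663-30135933, hg19), a retrocopy of MCTS1 inside an intron of HM13, is also expressed from the paternal allele. Its levels were 41.9%, 51.6%, 36.1%, 12.2%, 28.9%, 7.79%, 9.80% and 10.5% on days 0 to 7. The course was the least even of the 8 loci. The interval of day 1 (46.7 to 56.5%) lay above that of day 0 (38.5 to 45.3%), but the CpGs share reads, so both intervals are too narrow. Day 3 (11 of 90 reads) lay below day 4 (11 of 38 reads), whose intervals overlap. All 15 fixed CpGs were between 20% and 80%, from 26.3% to 58.0% on day 0. The 6 CpGs from 31 to 47 bases after the start read 53.6% on day 0, against 35.1% at the 9 before them, and on day 7 the 6 read 10.96% and the 9 read 10.3%. On day 1, also a deep library, the step was absent, with 50% at the 6 (99 of 198 reads) and 53.2% at the 9 (109 of 205). The split was placed after the values were seen.

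The second group encode zinc finger or RING proteins. ZNF597 (chr16:3492828-3494463, hg19), a zinc finger gene known as maternally expressed, had levels of 40.5%, 41.1%, 38.2%, 34.3%, 19.4%, 22.7%, 7.05% and 9.08% on days 0 to 7. It kept 94.4% of its day 0 level on day 2, the highest share of the 8 loci, and the intervals of days 0 to 3 overlap. Parts of the locus were less even. The 5 CpGs from chr16:3493336 to chr16:3493367 read 38.2%, 60.5% and 29.9% on days 0, 1 and 2. The 13 CpGs after them read 41.1%, 34.5% and 40.6%. This split was placed after the values were seen. The fixed CpGs of ZNF597 stood between 33.3% and 52.6% on day 0 with 1 exception. The CpG at chr16:3493494, 10 bases after the start of the gene, had 0 methylated of 127 reads over all 8 days, an upper limit of 2.36%, while the neighbouring CpGs at chr16:3493483 and chr16:3493504 read 42.4% and 52.6% on day 0. This CpG was picked out after its values were seen. Deposited calls do not show whether the cytosine is unmethylated or whether the line differs from hg19 there.

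ZNF331 (chr19:54040510-54042212, hg19), another imprinted zinc finger gene, had levels of 59.96%, 52.5%, 48.7%, 33.9%, 31.7%, 25.3%, 13.6% and 12.0% on days 0 to 7. Each day read lower than the day before, with a log-scale slope of -0.238 ± 0.025 per day (exact two-sided permutation p = 5e-05, 8 libraries, unadjusted). That is a halving every 2.91 days, the slowest of the 8 loci by this unweighted slope. RB1 (-0.248 ± 0.029), ZNF597 (-0.253 ± 0.051) and MCTS2P (-0.255 ± 0.066) lay within its SE. By the weighted slopes given below, RB1 was the slowest. Along the interval the day 0 level stepped down: the 5 CpGs from chr19:54040606 to chr19:54040726 read 77.3% (324 of 419 reads) and the 11 from chr19:54040813 to chr19:54041007 read 47.8% (287 of 600). On day 7 these stretches read 17.6% and 10.1%, which is 22.8% and 21.0% of their day 0 levels. The step was chosen after the values were seen, and 1 CpG inside the lower stretch, at chr19:54040860, stood at 92.9% on day 0.

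MKRN3 (chr15:23807086-23812495, hg19) encodes a RING-finger ubiquitin ligase of the Prader-Willi region, is expressed from the paternal allele, and carries mutations in central precocious puberty. Its levels were 80.1%, 77.5%, 69.7%, 47.0%, 36.2%, 30.6%, 11.5% and 14.2% on days 0 to 7. Each day to day 6 read lower than the day before, and day 7 (12.5 to 16.0%) overlaps day 6 (9.95 to 13.2%). Of its 29 fixed CpGs, 23 stood at 80% or more over days 0 and 1. The lowest was at chr15:23810962, with 44.3% on day 0 and 3.39% (2 of 59 reads) on day 7. In its promoter stretch, the 4 listed CpGs stood at 62.7% to 89.5% over days 0 and 1, the lowest of them 64 bases before the start.

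The third group lie inside introns of other genes or use an alternative promoter. NNAT, which encodes the membrane proteolipid neuronatin from the paternal allele inside an intron of BLCAP, spans chr20:36148604-36150528 (hg19). Its levels were 89.9%, 87.7%, 80.2%, 84.6%, 38.5%, 18.4%, 13.6% and 11.2% on days 0 to 7. All 25 fixed CpGs were at 80% or more over days 0 and 1, and NNAT had the smallest share kept on day 7 among the 8 tested loci, 12.5%, against 11.5% at INPP5F over its 12 listed CpGs. Day 3 stood apart: 77 of 91 reads were methylated (75.8 to 90.6%), and only 51 of 25320 tiles (0.201%) at 80% or more on days 0 and 1 with at least 50 reads on day 3 read as high, around a median of 52.9%. RB1, with 68.2% on day 3, was matched or passed by 7.16% of these tiles, MKRN3 by 71.7% and FAM50B by 78.3%.

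The NNAT CpGs lie in 2 stretches. The first, 13 CpGs from chr20:36148615 to chr20:36148755, read 90.7% (49 of 54 reads) on day 3 and 15.4% (10 of 65) on day 4. The second, 12 CpGs from chr20:36149891 to chr20:36150112, read 75.7% (28 of 37) on day 3 and 67.3% (35 of 52) on day 4, then 19.05% (8 of 42) on day 5. So both stretches were high on day 3, and on day 4 the first was low while the second was not. The CpGs within 5 kb on either side of NNAT read 47.6% on day 3 and 22.4% on day 4. Days 3 and 4 are shallow libraries, where reads of a stretch can come from few molecules, and this was noticed after the values were seen.

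INPP5F (chr10:121578046-121578727, hg19) encodes an inositol polyphosphate phosphatase, and its imprinted transcript starts at an internal promoter. Over its 12 listed CpGs the levels were 86.3%, 79.6%, 71.7%, 46.7%, 31.8%, 33.3%, 18.0% and 9.88% on days 0 to 7, with 9 to 22 reads on days 3 to 5. Over the 5 deep libraries the log-scale slope was -0.312 ± 0.034 per day (exact two-sided permutation p = 0.0083 over 120 orders, the smallest possible, unadjusted).

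PEG13 (chr8:141108147-141111081, hg19) is a non-coding RNA expressed from the paternal allele inside an intron of TRAPPC9. Its levels were 28.0%, 27.3%, 22.2%, 20.5%, 8.80%, 2.91%, 4.21% and 3.67% on days 0 to 7. The locus mean hides a boundary. The first 22 fixed CpGs read 7.37% on day 0 and 1.26% on day 7, and the last 18, from chr8:141109632, read 49.9% on day 0 and 6.40% on day 7. Over pooled reads only the last stretch was at an intermediate level. It kept 12.8% on day 7, against 17.1% in the first, where the pooled levels are low. The first stretch was not low throughout, since its CpGs at chr8:141108147 and chr8:141108171 read 45.6% and 27.2% on day 0. The boundary was placed after the values were seen. Of the 40 fixed CpGs, 21 were at 20% or less, 18 above 20% and below 80%, and 1 higher, at chr8:141110211, by the reads of days 0 and 1.

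DIRAS3 (chr1:68515433-68517545, hg19), a small GTPase gene and paternally expressed tumour suppressor, had only 3 listed CpGs. Its methylated reads were 17 of 38, 10 of 13, 22 of 39, 5 of 18, 0 of 4, 0 of 2, 2 of 39 and 2 of 31 on days 0 to 7. Days 4 and 5 are too thin to set a level. Day 7 read 6.45% (1.79 to 20.7%), against 44.7% (30.1 to 60.3%) on day 0. Over the 5 deep libraries the log-scale slope of DIRAS3 was -0.350 ± 0.080 per day (exact two-sided permutation p = 0.075 over 120 orders, unadjusted).

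**Figure D2:**
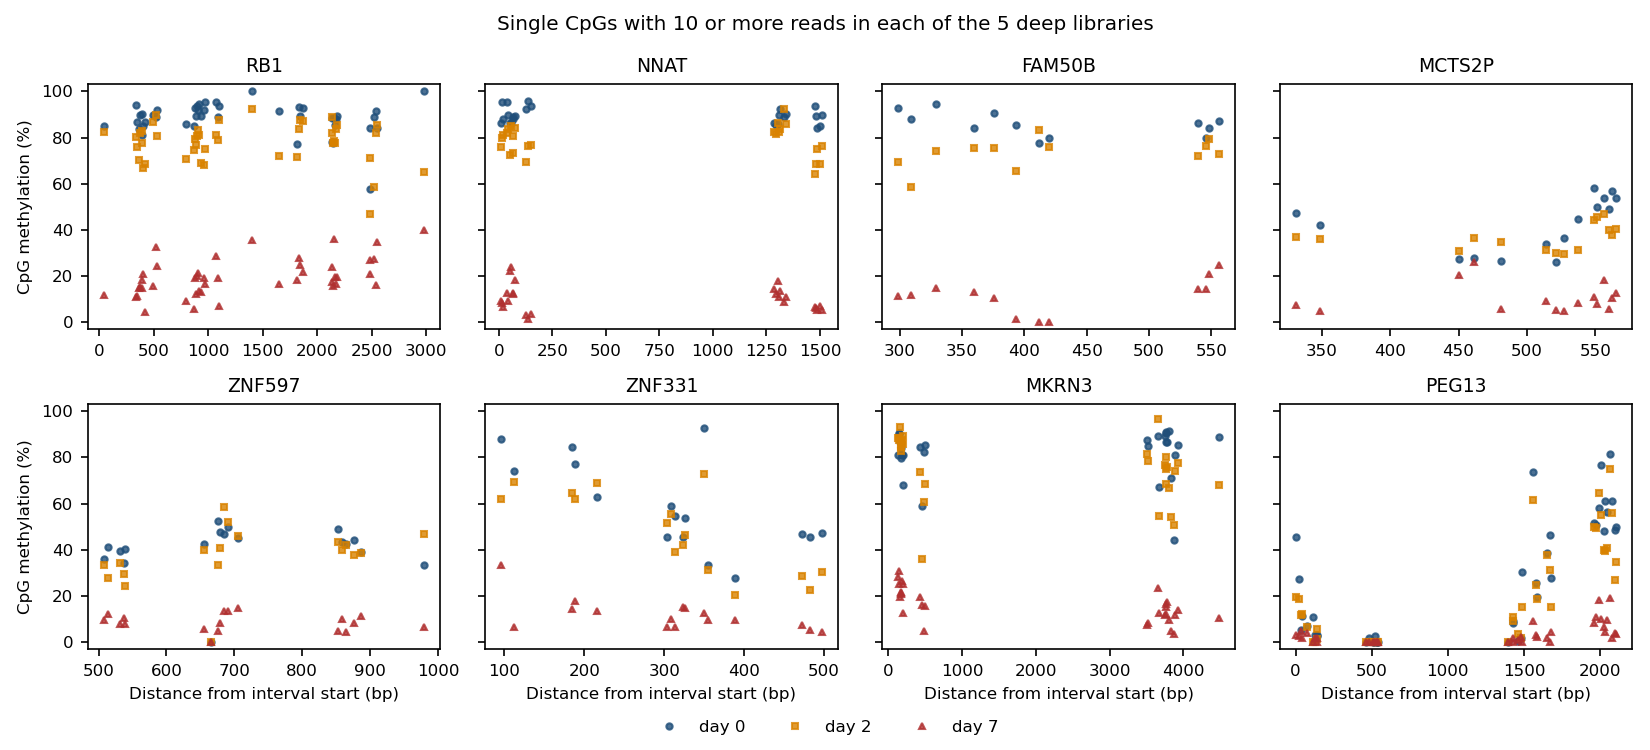
Methylation (%) of each fixed CpG of 8 loci on days 0, 2 and 7 against its distance from the interval start in bp. On day 0 all CpGs of NNAT and all but 4 of RB1 lie at 80% or more, while ZNF331 levels step down and PEG13 levels step up along the interval, and 1 CpG of ZNF597 lies at 0 on all 3 days.

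Single CpGs between 20% and 80% over days 0 and 1 differed in what they read on day 7, though most rest on few reads. At MCTS2P the highest on day 7 was chr20:30135124, 58 bases before the start, with 26.1% (12 of 46 reads, 15.6 to 40.3%), and the lowest chr20:30135190 with 4.88% (2 of 41, 1.35 to 16.1%), so their intervals just overlap. At ZNF331 the highest was chr19:54040699 with 17.7% (14 of 79) and the lowest chr19:54041007 with 4.55% (2 of 44). At PEG13 the highest was chr8:141110140 with 18.4% (9 of 49) and the lowest chr8:141109632 with 0 of 44, which allows up to 6.82%. These intervals, 9.98 to 31.4% and 0 to 8.03% at PEG13, do not overlap, but they belong to the extremes of 19 CpGs, 1 of them at exactly 20%. At MKRN3 the highest was chr15:23807547 with 15.9% (11 of 69). At ZNF597 the 17 intermediate CpGs ran from 4.35% (1 of 23 reads) to 15% (3 of 20), within counting error of each other.

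Whether an imprinted locus lost methylation faster or slower than other partly methylated DNA was asked next. The tiles at 20 to 80% used for this had a mean of 70.6% on day 0, and they were not matched to any locus by level. On day 7 the 8 loci kept a median of 18.8% of their day 0 level, from 12.5% at NNAT to 25.2% at MCTS2P. The 89117 tiles at 20 to 80% kept a median of 19.8%, with 11.1% and 29.5% as the 5th and 95th percentiles, and the 82002 tiles at 80% or more kept 20.8%. The loci thus all lay within the range of the tiles. On day 2 the loci kept a median of 86.7%, from 79.1% at PEG13 to 94.4% at ZNF597, against 83.4% in tiles at 20 to 80%.

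**Figure D3:**
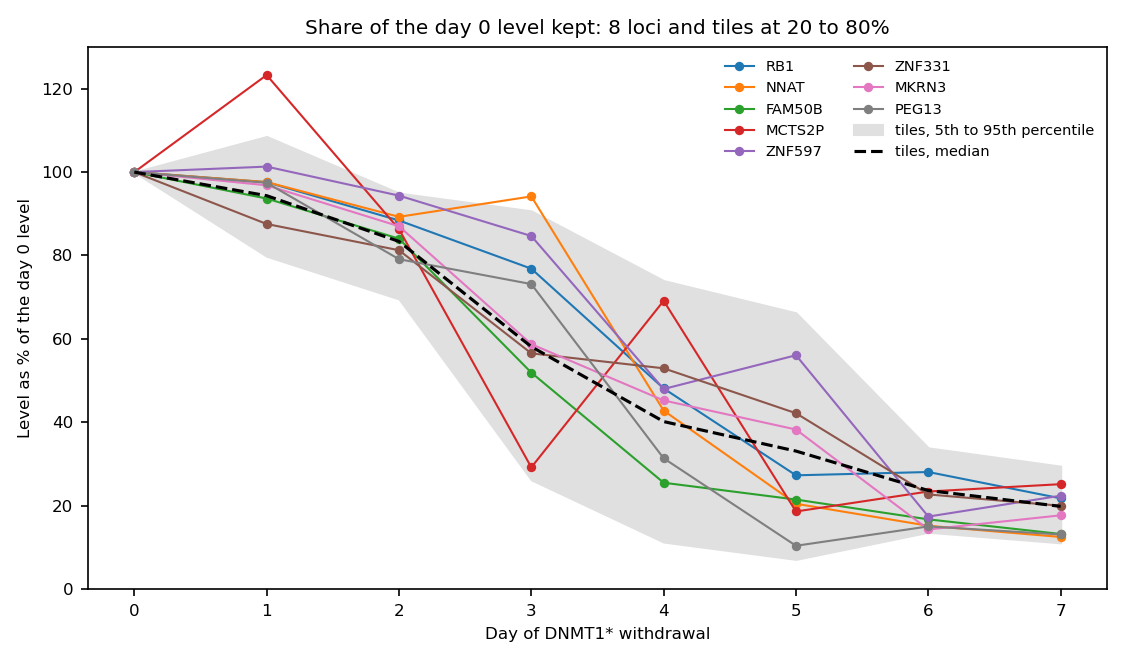
Level as % of the day 0 level against day for 8 loci, with the median (dashed) and the 5th to 95th percentiles (grey) of 89117 tiles at 20 to 80% on days 0 and 1. On day 7 the 8 loci lie between 12.5% and 25.2%, within the grey range, and MCTS2P on day 1 and NNAT on day 3 lie above it.

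For a test of the rate, the natural log of each region's level minus that of the mean of tiles at 20 to 80% was fitted on day with limma and precision weights. Adjustment was over 171174 regions at 20% or more on days 0 and 1. None of the 8 loci passed the adjusted threshold of 0.05 (limma), while 1.24% of regions lost methylation faster and 3.44% slower than the tiles. At an unadjusted p under 0.05 there were 3 of 8 loci, against 21.0% of regions. The slope was negative, meaning faster loss, at 6 of 8 loci and at 46.6% of regions.

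PEG13 had the lowest slope difference, with -6.73% per day (95% interval -10.9 to -2.33%, adjusted p = 0.078 by limma). FAM50B followed with -3.76% per day (-6.95 to -0.452%, adjusted p = 0.18). RB1 was the only locus with an interval above 0, at 2.41% per day (0.513 to 4.35%, adjusted p = 0.13). Without day 2, FAM50B passed the threshold as faster (adjusted p = 0.044, limma), as did 1.84% of regions. With tiles at 40 to 60% as the comparison RB1 passed as slower (adjusted p = 0.012, limma), as did 12.6% of regions. RB1 itself stood at 88.8% on day 0. Against tiles at 80% or more it did not pass (log-scale difference 0.0160 per day, adjusted p = 0.35, limma). Across all alternatives run, adjusted p of PEG13 ran from 0.061 to 0.66.

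The remaining 5 loci had intervals that include 0. The difference was -2.71% per day at MKRN3 (-5.97 to 0.656%), whose sign depended on day 6, with a log-scale slope of 0.0014 without it and -0.0275 with it. It was -1.78% at NNAT (-5.64 to 2.23%), 0.196% at MCTS2P (-5.43 to 6.16%), -0.0906% at ZNF597 (-4.88 to 4.94%) and -0.0243% at ZNF331 (-3.05 to 3.09%). The signs of the last 3 changed under several alternatives.

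**Figure D4:**
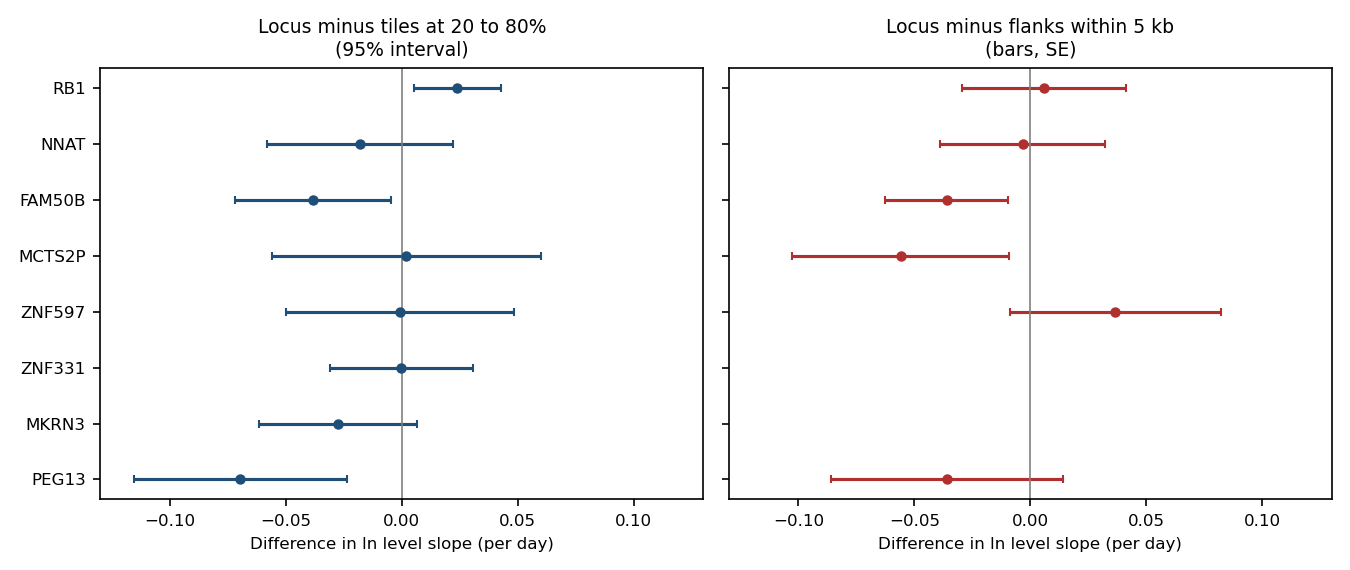
Difference in slope of the natural log of the level (per day), at left for each locus minus tiles at 20 to 80% with 95% intervals, and at right for 6 loci minus their flanks within 5 kb with SE. At left the intervals of RB1 lie above 0 and those of FAM50B and PEG13 below it, and at right the values of all 6 loci lie between -0.0559 and 0.0366.

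Neighbouring DNA gave a second comparison, within the same libraries. Flanks were fixed CpGs within 5 kb on either side of the interval, and 6 loci had enough of them. At 3 loci the day 0 level lay far below that of the flanks: MCTS2P stood at 41.9%, against 88.4% in its flanks, ZNF597 at 40.5%, against 75.5%, and PEG13 at 28.0%, against 76.0%. By contrast RB1 stood at 88.8%, against 88.5%, NNAT at 89.9%, against 84.1%, and FAM50B at 86.3%, against 85.6%. On day 7 the levels were 10.5% at MCTS2P, against 24.8% in its flanks, 9.08% at ZNF597, against 8.23%, and 3.67% at PEG13, against 8.85%. At RB1 the day 7 level was 19.3%, against 17.0%, at NNAT 11.2%, against 11.2%, and at FAM50B 11.4%, against 14.3%.

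In none of these 6 loci did the slope of the log ratio to the flank differ from 0 at an unadjusted p under 0.05 (exact two-sided permutation of the 8 days). The log-scale slope difference per day was -0.0559 ± 0.0469 at MCTS2P (SE, 8 libraries, exact p = 0.27), -0.0361 ± 0.0266 at FAM50B (exact p = 0.22) and -0.0360 ± 0.0501 at PEG13 (exact p = 0.51). It was 0.0366 ± 0.0455 at ZNF597 (exact p = 0.49), 0.0060 ± 0.0354 at RB1 (exact p = 0.89) and -0.0034 ± 0.0355 at NNAT (exact p = 0.92). In the 5 deep libraries alone FAM50B reached -0.0341 with an exact p of 0.0083, the smallest that 5 days allow. ZNF597 kept 22.4% of its day 0 level on day 7, against 10.9% in its flanks, which rest on 8 CpGs.

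Other imprinted regions were set beside the loci as a list of 12 imprinting control regions, whose intervals were entered by hand from general knowledge and not checked against an annotation. Of these, 10 were tested and at 20% or more on days 0 and 1. The interval given for GNAS A/B read 0.954% on day 0, so it may not hold the intended region, and the NAP1L5 interval held no listed CpG. Of the 10, 8 stood between 20% and 80% on day 0, unlike MEG3 with 84.2% and PEG3 with 81.1%. The 8 loci kept a median of 18.8% on day 7, against 15.05% in these 10, where the lowest was KCNQ1OT1 (12.3%) and the highest SNRPN (21.9%). Of the paternally methylated ones, H19 kept 17.5% and MEG3 14.5%. Their rates against the tiles were negative at 9 of 10, and MEG3 alone passed the threshold (adjusted p = 0.039, limma). Of all 171174 regions, 46.6% were negative, and 1.24% passed as faster and 3.44% as slower. The 2 lists were not tested against each other.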

How the data were processed

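RRBS of 8 libraries was used, 1 per day. The RRBS protocol was a published one with changes for few cells, per the labels' protocols, and the genome build is hg19, per the submitters' processing notes. No aligner, methylation caller or handling of duplicates is given in the sources used here. The authors deposited, for each CpG, methylated and total read counts and a score, which in 100% of lines is the rounded methylated share times 1000. The read counts were used and the score was not. Starts were changed to count from 1.

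Regions needed at least 3 fixed CpGs and 10 reads in every library. Tiles were 1 kb wide and autosomal, with classes cut at 20% and 80% of the reads pooled over days 0 and 1. Falls over days were tested by quasi-binomial regression, with the dispersion moderated by limma's squeezeVar along a trend and kept at 1 or more. Rates were tested with limma on the natural log of (methylated reads + 0.5)/(all reads + 1). Slopes of single loci, and of loci against flanks, used exact permutation of the days and are unadjusted. A reading of 0 is given with the limit that 3 reads allow. Both fits were tested on simulated reads. With extra spread that grew with depth, too many false calls were made. With spread alike in all libraries, few were. The mean squared residual of the real tiles, where 1 is binomial, was 1.89 to 2.63 in the deep libraries and 2.09 to 2.32 in the shallow ones. Among the deep libraries it was lowest on day 1, with a median of 162 reads per tile, and highest on day 0, with 346. Which simulated setting is nearer to the data was not tested. The residuals were looked at after the first simulation, and the tests were not changed.

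The intervals use no measured value, but the members, the lists and the tests were chosen with earlier results of these data known. All 10 loci are named. Within a locus the named CpGs are those with the highest and lowest day 7 level among CpGs at 20 to 80% over days 0 and 1. Other single CpGs, the steps along a locus, the match of promoters by CG spacing and the NNAT values of day 3 were picked after the values were seen. Alternatives were read minimums of 1, 5 and 20, an upper limit on coverage, equal weight per CpG, other tile classes, no weights, no moderation, arcsine square-root levels, flanks of 2 and 10 kb, the deep libraries alone and each day left out. RefSeq had no entry used for NNAT, and the entries of DIRAS3, INPP5F, RB1 and ZNF331 were not matched. Tools were R 4.3.3, limma 3.58.1, Python 3.11.15, numpy 2.4.6, pandas 2.3.3 and matplotlib 3.10.9.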

Additional observations from a re-analysis of the deposited data

How the results depend on the processing

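The falls of the 8 loci kept direction and call under all 16 alternatives run. The count of loci whose rate passed the threshold was 0 with all days and ran from 0 to 1 with each day left out (FAM50B without day 2). It was 1 against tiles at 40 to 60% (RB1, 0.0390 per day) and 0 against tiles at 80% or more (RB1, 0.0160 per day). The count of loci that differed from their flanks was 0 with each day left out and 1 in the 5 deep libraries (FAM50B). Of 8 loci with CpGs of at least 20 reads, 3 stood at 80% or more on day 0, against 5 of 9 with at least 10 reads.

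Signs near 0 turned. With each day left out, the rate difference per day ran from -0.0366 to 0.0100 at MCTS2P, from -0.0027 to 0.0095 at ZNF331, from -0.0281 to 0.0324 at ZNF597, from -0.0614 to 0.0014 at MKRN3 and from -0.0685 to 0.00027 at NNAT. Under other settings it was -0.0071 (against tiles at 80% or more), -0.0042 (no weights) and -0.0209 (20 reads) at MCTS2P. At ZNF597 it was 0.0019 with 1 read, 0.0018 with 5 and 0.0178 with 20 reads, 0.0132 against tiles at 40 to 60% and 0.00016 against tiles with 10 CpGs. At ZNF331 it was 0.0138 against tiles at 40 to 60%, 0.00090 against tiles with 10 CpGs and 0.0133 without weights. Against flanks it turned to -0.0056 (2 kb) and -0.0070 (equal weight per CpG) at RB1, to 0.00081 (10 kb) at NNAT and to -0.0371 (equal weight) at ZNF597. With each day left out, it ran from -0.0074 to 0.0265 at RB1, from -0.0280 to 0.0274 at NNAT and from -0.0348 to 0.0630 at ZNF597. The causes were not tested.

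The rate test itself depended on single libraries: of 171174 regions, 2122 were faster and 5891 slower with all days, 14 and 208 without day 6, 82 and 534 without day 7, and 0 either way without weights, where 12301 had an unadjusted p under 0.05 (limma). Depth limits days 3 to 5, DIRAS3 and INPP5F. No batch is labelled, and a batch cannot be told apart from the 3 shallow days. No paired analysis was possible because each day has 1 library and the labels give no replicate numbers.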
